A study of Drosophila melanogaster with 2 samples.

Results

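The proteasome subunit genes of Drosophila melanogaster were taken as the protein-coding genes whose symbol starts with Prosalpha, Prosbeta, Rpn or Rpt followed by a number. There were 48 of them among 13968 protein-coding genes on the 7 chromosome arms. Of the 48, 32 had a symbol with no suffix and are called general subunits. Another 13 ended in T, T1, T2, R or R2 and are called testis copies. The last 3, Prosbeta2R1, Prosbeta4R1 and Prosbeta5R1, end in R1 and were kept apart, since that ending is not among those that define the testis copies.

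The proteasome degrades proteins that carry ubiquitin chains. Its core particle is a barrel of stacked rings built from the alpha subunits (Prosalpha genes), which form the gate, and the beta subunits (Prosbeta genes), some of which cut peptide bonds. A regulatory particle caps the barrel. Its Rpt subunits are ATPases that unfold the substrate, and its Rpn subunits receive, deubiquitinate and position it. In Drosophila several subunits have a second gene that is expressed in the male germline, and the general subunits are used in cells of all kinds.

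Worniu, a zinc finger factor of the Snail family made in neural stem cells, was mapped as a fusion of wor with eGFP by chromatin immunoprecipitation and sequencing (ChIP-seq). The single group was whole embryos of the strain wor-GFP, collected between 0 and 18 h of age, in 2 biological replicates, with the fusion precipitated through an anti-GFP antibody. No second genotype, treatment or control precipitation was analysed here, so no value has been set against a control and no test across conditions exists. Because all embryonic tissues were in each library, strong occupancy in few cells and weak occupancy in many cannot be told apart.

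A gene was called bound if a peak of the conservative list had its summit within 500 bp of one of the annotated transcript starts of the gene. The authors made the conservative list from both replicates together. Its peaks passed a limit on the irreproducible discovery rate (IDR), a score of how well the ranks of peaks match between data sets. It held 3045 peaks on the arms. Signal is the authors' own height per peak, used here only to rank or describe peaks within a list. The depth of the libraries was not given in the files and is unknown. Intervals are 95% Wilson intervals over genes and cover counting error only.

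Few proteasome genes were bound. Conservative summits lay near the starts of 2 of the 32 general subunits, Rpn3 and Rpn5 (6.25%, interval 1.73 to 20.1), and near the starts of 0 of the 13 testis copies. A count of 0 allows a share of up to 3 genes of the total, here 23.1% (Wilson upper limit 22.8%). By the same rule 10.6% of all protein-coding genes were bound (1479 of 13968). The general subunits' interval includes that share, and the limit for the testis copies lies above it, so neither count stands apart from the background. The 3 R1 copies were unbound too. Over all members the count was 2 of 48 (4.17%, interval 1.15 to 14.0).

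Within the general subunits, both bound genes encode parts of the lid, the outer part of the regulatory particle that removes ubiquitin. Other lid genes, among them Rpn6, Rpn11 and Rpn12, were unbound. Bound were 2 of 12 Rpn genes, 0 of 6 Rpt genes, 0 of 7 Prosalpha genes and 0 of 7 Prosbeta genes. The 0 of 14 core genes allows, by the same limit of 3 genes, a share of up to 21.4% (Wilson upper limit 21.5%), so the core could not be told from 10.6% at this number of genes. For scale, the same rule called 27 of 88 cytosolic ribosomal protein genes (30.7%, interval 22.0 to 41.0) and 13 of 73 mitochondrial ones (17.8%, interval 10.7 to 28.1). The interval of the general subunits ends at 20.1%, and the differences between these groups were not tested.

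**Figure D1:**
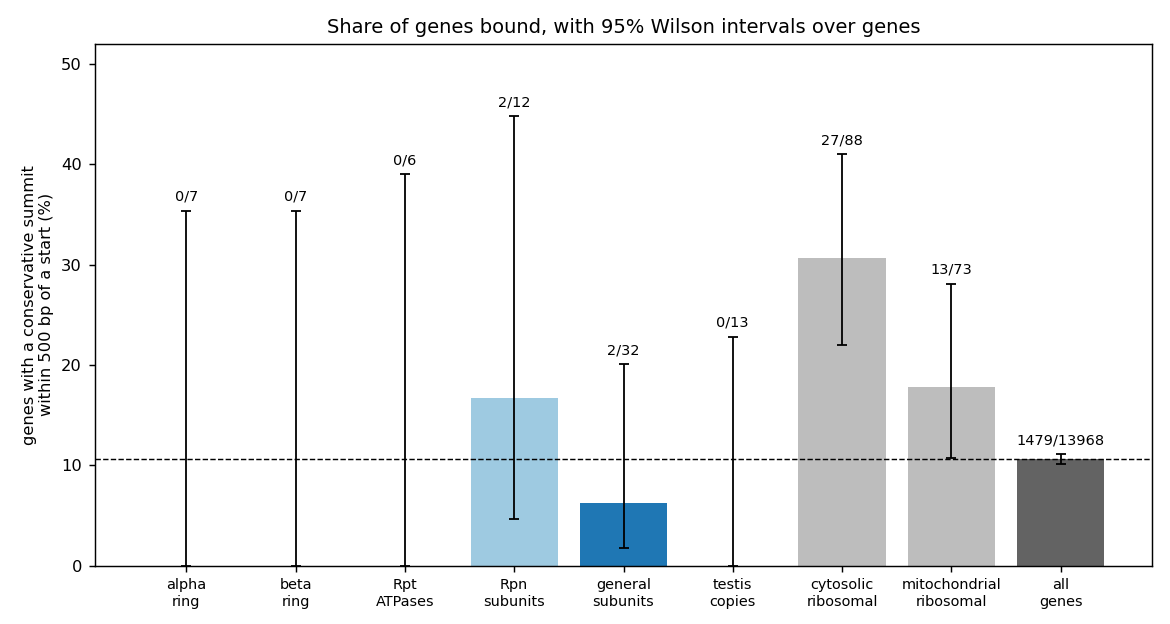
Percentage of genes with a conservative summit within 500 bp of a start, by group of genes, with 95% Wilson intervals over genes and the count of bound genes above each bar; the dashed line is the share over all protein-coding genes. The bar of the general subunits stands at 6.25% and that of the testis copies at 0, beside 10.6% for all genes, and the intervals of both reach above the dashed line.

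Rpn3 had the stronger of the peaks at members. Rpn3 (FBgn0261396, chr2L:19051790-19053681, plus strand) encodes a structural subunit of the lid. Its peak, chr2L:19051597-19051960 on dm6, had a signal of 167 and ranked 882 of 3045. The summit lay 11 bp upstream of the outermost Rpn3 start, in sequence annotated to no gene. Replicate 1 had a signal of 78.0 there and replicate 2 had 86.3, with summits 3 bp from the conservative summit in each. Both replicates' own thresholded lists held the peak.

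The peak at Rpn3 spans a divergent promoter. The start of l(2)37Bb (FBgn0002021), on the minus strand, lay 167 bp from the summit and 178 bp from the Rpn3 start. The 177 bases between these starts are shown because they hold a direct repeat, whose 2 copies are in capitals (RefSeq Release 6, plus strand, chr2L:19051613-19051789):
Rpn3 and l(2)37Bb: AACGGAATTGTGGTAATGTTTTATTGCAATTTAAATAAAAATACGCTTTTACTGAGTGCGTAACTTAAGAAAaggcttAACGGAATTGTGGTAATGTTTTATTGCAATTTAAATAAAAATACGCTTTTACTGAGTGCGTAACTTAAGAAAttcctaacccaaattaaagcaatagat
Within these bases each copy is 72 bases long, the copies are identical and 6 bases separate them. The search did not go past the l(2)37Bb start, and the first copy begins at the first base searched. The last bases of the Rpn3 stretch printed further below, gaaaaggc, recur across the end of the first copy. The repeat may therefore run on into l(2)37Bb, and its full length was not determined. The summit lay 17 bp past the end of the second copy. The unit was found 2 times on the arms, both here, so reads that fall inside 1 copy cannot be assigned to either by sequence. The part of the repeat in the position or height of this peak was not tested.

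Rpn5 had a weaker peak that lay nearer to another gene. Rpn5 (FBgn0028690, chr3R:5789493-5791569, plus strand) also encodes a structural subunit of the lid. Its peak, chr3R:5789140-5789503, had a signal of 130 and ranked 1280 of 3045, with the summit 171 bp upstream of the only Rpn5 start. Hat1, a histone acetyltransferase gene on the minus strand, has a start 62 bp from that summit, which lay inside Hat1 but in none of its annotated exons. Replicate 1 had a signal of 58.9 and replicate 2 had 67.0, with summits 44 and 24 bp from the conservative summit. The peak was in the thresholded list of replicate 2 and not in that of replicate 1. Its −log10 IDR in replicate 1 was 1.73, and all peaks of the thresholded lists passed a limit of 2. Unlike the stretch shown for Rpn3, the bases between the starts of Rpn5 and Hat1 do not include the summit. These 108 bases are shown for comparison with the Rpn3 promoter, with a TATAAA match in capitals (chr3R:5789385-5789492, plus strand):
Rpn5 and Hat1: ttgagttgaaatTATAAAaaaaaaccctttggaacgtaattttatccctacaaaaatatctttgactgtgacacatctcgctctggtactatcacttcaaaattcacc

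The median signal at the bound members was 148, beside 149 over the strongest peak of each of the 1479 bound genes and 115 over all conservative peaks. Both peaks lay above the median of the list, with 28.9% of its peaks stronger than that at Rpn3 and 42.0% stronger than that at Rpn5. Counted only where the member also had the start nearest to the summit, Rpn3 remained and Rpn5 did not, leaving 1 of 32 general subunits beside 7.90% of all genes. In the thresholded list of replicate 1, taken without replicate 2, the count was also 1, Rpn3, beside 9.26% of all genes.

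**Figure D2:**
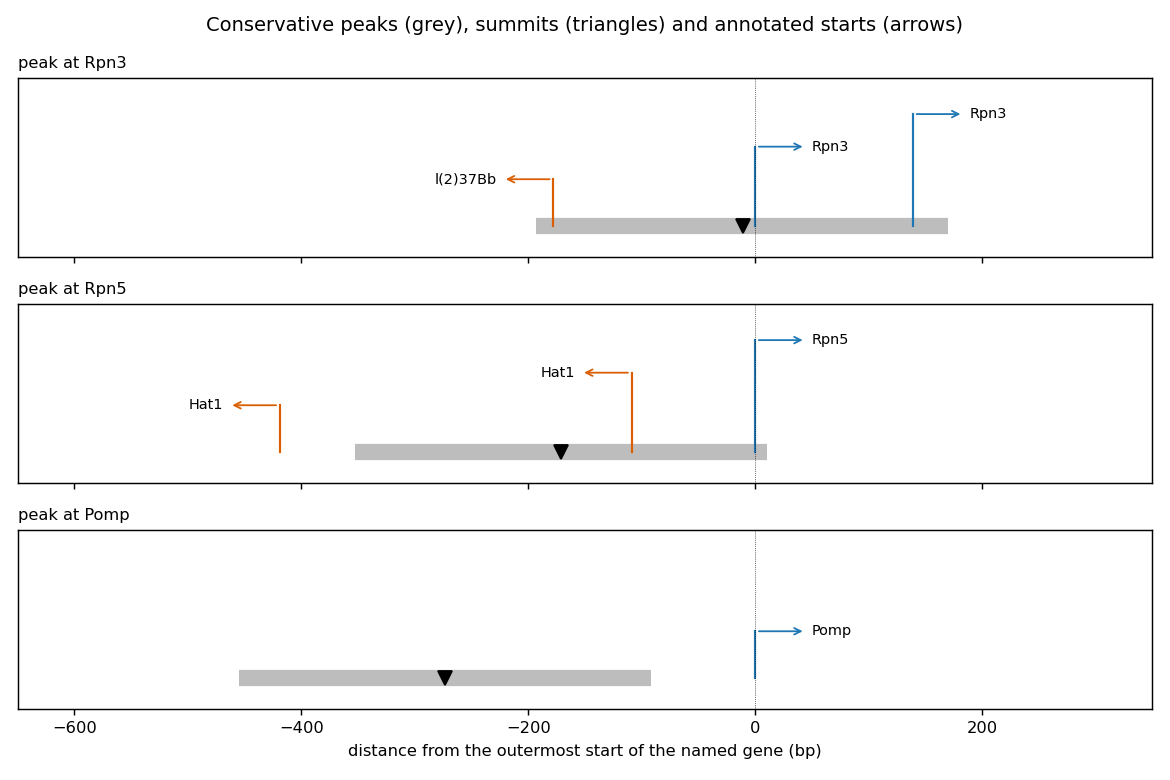
Conservative peaks at Rpn3, Rpn5 and the assembly factor gene Pomp on an axis of distance in bp from the outermost start of the named gene, with peaks as grey bars, summits as triangles and annotated protein-coding starts as arrows pointing in the direction of transcription. The Rpn3 summit lies 11 bp upstream of its start, the Rpn5 summit 171 bp upstream and closer to Hat1, and the Pomp summit 273 bp upstream with no other start in view.

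Divergent promoters were common among the general subunits. A protein-coding start on the opposite strand lay within 500 bp upstream for 21 of 32 general subunits (65.6%), 3 of 13 testis copies (23.1%) and 27.3% of all genes. Over the whole annotation, 21.2% of the genes with such a partner were bound and 6.61% of those without one. A summit within 500 bp of both starts of a pair counts for both genes, which raises the first share by construction. Bound were 2 of the 21 general subunits with a partner, beside that 21.2%, and 0 of the 11 without one, beside 6.61%. The differences were not tested. The share of 10.6% over all genes is not matched for partners. Most paired general subunits stayed unbound, as did most paired genes of the annotation. Unbound pairs included Rpt5 with RanBP3 at 42 bp, Rpt4 with mldr at 58 bp, Rpt2 with CG13599 at 81 bp and Prosalpha4 with kat80 at 90 bp. The testis copies with a partner were Prosalpha1R, Prosbeta2R2 and Rpt3R.

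The ranked list behind the conservative list holds weaker and less reproducible peaks, 62469 on the arms, and shows what was near the unbound members. A ranked peak of any IDR lay within 500 bp of a start for 12 of 32 general subunits (37.5%, interval 22.9 to 54.7), 4 of 13 testis copies (30.8%, interval 12.7 to 57.6) and 0 of 3 R1 copies. Over all protein-coding genes the share was 47.9%, inside the first 2 intervals. Over all members it was 16 of 48 (33.3%, interval 21.7 to 47.5), an interval that ends just below 47.9%; the difference was not tested. Among genes that had a ranked peak without being bound, the median signal was 23.7 for the general subunits, 27.8 for the testis copies and 33.0 for all genes. The −log10 IDR of these peaks at the 10 general subunits lay between 0.05 and 1.12.

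Among the core particle genes, Prosbeta2 came closest to the limit. Prosbeta2 encodes the catalytic subunit with trypsin-like activity. Its ranked peak had a signal of 59.1 and a −log10 IDR of 1.12, with the summit 72 bp upstream of the start. Replicate 2 had a signal of 26.7 within 500 bp and replicate 1 had no ranked peak there. Prosalpha2 had 38.3 with a −log10 IDR of 0.11, and Prosbeta6, a beta subunit with no protease activity of its own, had 19.4 with 0.05. The other 11 general core genes had no ranked peak within 500 bp in the list of both replicates. Of these, Prosalpha3 had a peak of 23.6 and Prosalpha7 one of 12.6 in replicate 1 only, and Prosbeta3 one of 13.8 in replicate 2 only. The genes without a ranked peak in any of these lists include Prosbeta1 and Prosbeta5, which encode the caspase-like and chymotrypsin-like subunits, and Prosalpha1, Prosalpha4, Prosalpha5, Prosalpha6, Prosbeta4 and Prosbeta7.

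Of the general regulatory particle genes, 9 of 18 had a ranked peak (interval 29.0 to 71.0), and of the general core genes 3 of 14 (21.4%, interval 7.57 to 47.6). The first interval includes the 47.9% of all genes, the second ends just below it, and the intervals overlap. Rpn1, a scaffold subunit that binds shuttle factors, had 43.8, located 306 bp downstream of its start, and the strongest peaks within 500 bp were 32.5 in replicate 1 and 18.8 in replicate 2. Rpn6, a lid subunit that braces the particle against the core, had 37.8, and the strongest were 23.6 in replicate 1 and 21.0 in replicate 2. Rpn11, the deubiquitinase of the lid, had 26.5, and the strongest were 18.5 in replicate 1 and 21.6 in replicate 2. The summits of the replicates' peaks lay 139 bp apart at Rpn1, 248 bp at Rpn6 and 294 bp at Rpn11. Whether the replicates' peaks overlap at these genes was not tested. The −log10 IDR of the joint peaks was 0.12 at Rpn1, 0.43 at Rpn6 and 0.42 at Rpn11, below the limit of 2. Rpn10, a ubiquitin receptor, had 20.9, Rpn2, the other large scaffold subunit, had 16.1, Rpt5, an ATPase of the base, had 6.48, and Rpn12, a lid subunit, had 2.02. Rpn7, Rpn8, Rpn9, Rpn13, Rpt1, Rpt2, Rpt3, Rpt4 and Rpt6 had no ranked peak within 500 bp in the list of both replicates. Of these, Rpt3 had 19.2, Rpn8 had 21.1 and Rpn13 had 16.7 in replicate 1 only.

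The testis copies with a ranked peak were Rpn12R with a signal of 34.6, Rpt4R with 29.2, Rpt3R with 26.4 and Prosalpha6T with 16.1. Their −log10 IDR ran between 0.05 and 0.19. Replicate 1 had a peak near each of the 4, with signals of 14.2 for Rpn12R, 20.6 for Rpt4R, 12.6 for Rpt3R and 15.0 for Prosalpha6T, and replicate 2 had none near any of them. Prosalpha4T1 and Prosalpha4T2 had a peak in replicate 1 only, of 20.8 and 22.1, and Rpt6R in replicate 2 only, of 21.3. Of the R1 copies, Prosbeta4R1 had 25.7 and Prosbeta5R1 had 12.3 in replicate 1 only. Prosalpha1R, Prosalpha3T, Prosbeta2R2, Prosbeta4R2, Prosbeta5R2, Rpn13R and, among the R1 copies, Prosbeta2R1 had no ranked peak within 500 bp in either replicate or in the list of both.

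Each replicate had some ranked peak, whatever its IDR and place within 500 bp, near 6 of 32 general subunits and 0 of 13 testis copies, beside 28.6% of all genes. The 6 were Prosalpha2, Rpn1, Rpn3, Rpn5, Rpn6 and Rpn11. With summits of the replicates within 100 bp of each other, a limit applied after seeing the data, the counts were 3 (Prosalpha2, Rpn3 and Rpn5) and 0, beside 21.5% of all genes. At Prosalpha2 the matching summits were 3 bp apart, with 26.5 in replicate 1 and 16.1 in replicate 2, whose stronger peak there, of 17.8, lay elsewhere. The list of replicate 1 had a peak near 13 general subunits and 6 testis copies, beside 47.6% of all genes. The list of replicate 2 had one near 9 general subunits and 1 testis copy, beside 40.3% of all genes. The ranked list of replicate 1 was the longer, with 55955 peaks on the arms against 36134 in replicate 2, and the part of list length in the replicate difference was not tested.

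**Figure D3:**
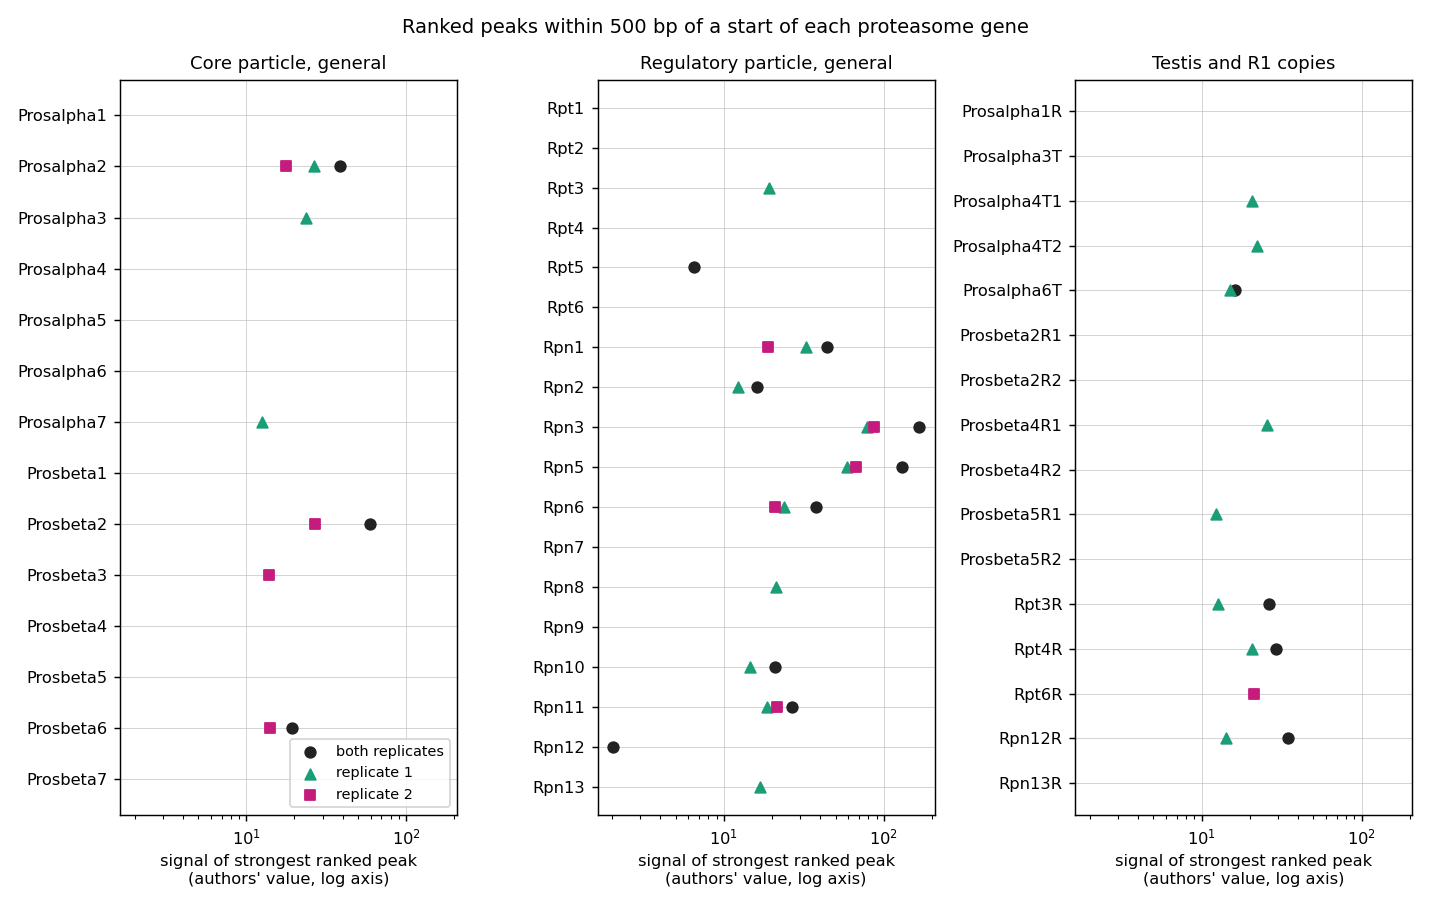
Signal of the strongest ranked peak within 500 bp of a start for each of the 48 genes (authors' value, log axis), in the list made from both replicates (circles), replicate 1 (triangles) and replicate 2 (squares); a gene with no symbol had no ranked peak there. Rpn3 and Rpn5 lie furthest right at 167 and 130, Prosbeta2 follows at 59.1, and no testis or R1 copy lies above 34.6.

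By the median, general subunits lay nearer to conservative summits than the testis copies did. The median distance from a start to the nearest conservative summit was 8304 bp for the general subunits, 37764 bp for the testis copies and 13283 bp over all protein-coding genes on arms that held a peak. The range was 11 to 74491 bp for the general subunits, with Prosbeta7 farthest, and 4005 to 155123 bp for the testis copies, with Prosbeta2R2 nearest and Prosbeta5R2 farthest. The groups overlap, and the difference was not tested. The general subunits just outside the 500 bp limit were Rpn2 with a summit at 1407 bp and a signal of 5.41, Rpn11 at 1540 bp with 76.3 and Prosbeta6 at 1962 bp with 128, all upstream of the start. Widening the limit to 1000 bp therefore added no member, while 12.7% of all genes were then bound.

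Some members share their surroundings. Prosalpha1 and Prosalpha1R lie close together (chr2R:7827303-7828678 and chr2R:7830413-7831771) and have the same nearest conservative peak, with a signal of 157, at 3319 bp from Prosalpha1 and 6412 bp from Prosalpha1R. Prosbeta4R2 and Prosbeta4R1, also close together, on 2L, share a nearest peak of 126 at 93383 bp from Prosbeta4R2 and 95731 bp from Prosbeta4R1. A single annotated exon was found in 4 of 32 general subunits (12.5%), 6 of 13 testis copies (46.2%) and 15.3% of all genes, a difference that was not tested. The single-exon testis copies were Prosalpha3T, Prosalpha4T1, Prosalpha6T, Prosbeta5R2, Rpn12R and Rpn13R.

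**Figure D4:**
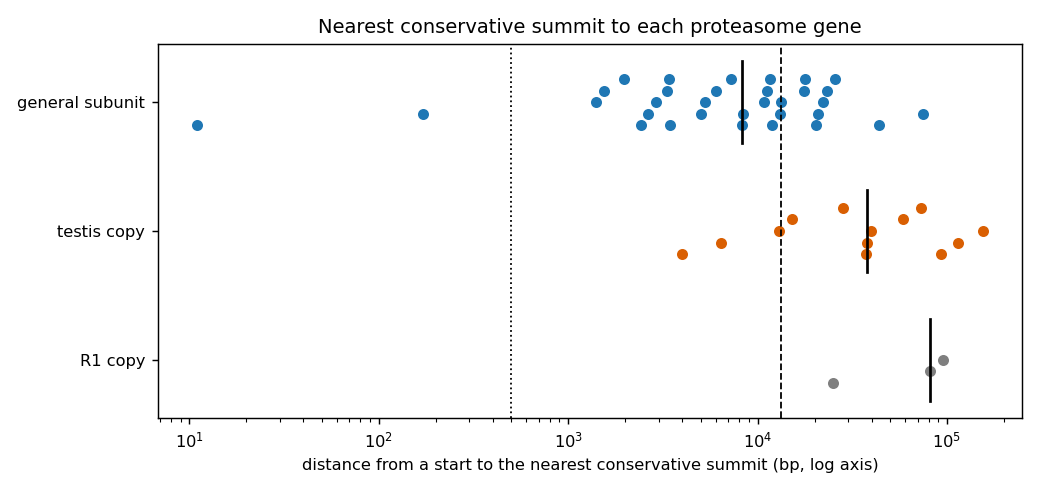
Distance in bp (log axis) from each proteasome gene to its nearest conservative summit, by class, with 1 point per gene and the class median as a vertical bar; the dashed line is the median over all protein-coding genes and the dotted line the 500 bp limit. The medians are 8304 bp for general subunits and 37764 bp for testis copies, and only Rpn3 and Rpn5 fall left of the dotted line.

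Promoter sequence was also compared between the classes. Promoters were taken from 250 bp before to 50 bp after the outermost start of each gene and searched on both strands. The DNA replication-related element (DRE), TATCGATA, which the factor DREF binds in promoters of growth and housekeeping genes, was found in 12 of 32 general subunits (37.5%), 0 of 13 testis copies and 9.36% of all promoters. The 12 were Prosalpha3, Prosalpha5, Prosalpha6, Prosbeta1, Prosbeta2, Prosbeta6, Rpt5, Rpn3, Rpn7, Rpn9, Rpn12 and Rpn13. The counts were 14 and 0 with 500 bp before the start and 8 and 0 with 100 bp, beside 11.4% and 7.62% of all promoters. As for binding, 0 of 13 allows a share of up to 23.1%, above the share of all promoters. The testis copies could therefore not be told from the background in this element. The difference between the classes is a description and was not tested.

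Of the 13 testis copies, 5 have a general counterpart with a DRE and 8 have one without it, so most pairs do not differ in this element. A pair from each ring of the core was chosen among the 5 to show a promoter with the element beside one without it. The 100 bases upstream of each start are printed on the strand of the gene, with DRE matches in capitals (chr2L:10221251-10221350 for Prosalpha6, chr2L:13231939-13232038 for Prosalpha6T, chr3L:14999851-14999950 for Prosbeta2 and, on the minus strand, chr3R:5219529-5219628 for Prosbeta2R2):
Prosalpha6: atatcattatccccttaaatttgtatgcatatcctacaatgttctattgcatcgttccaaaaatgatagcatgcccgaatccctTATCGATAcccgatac
Prosalpha6T: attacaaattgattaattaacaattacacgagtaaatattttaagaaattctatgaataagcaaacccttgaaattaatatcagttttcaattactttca
Prosbeta2: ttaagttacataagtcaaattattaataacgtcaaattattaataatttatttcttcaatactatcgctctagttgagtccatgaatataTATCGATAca
Prosbeta2R2: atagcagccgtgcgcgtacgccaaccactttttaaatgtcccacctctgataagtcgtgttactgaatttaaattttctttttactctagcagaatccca
The DRE begins 16 bp before the Prosalpha6 start and 10 bp before the Prosbeta2 start, and neither copy has one in its promoter.

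More general subunits show how the element varies in place, each given with 10 bases on either side (chr2L:19051583-19051610, chr3L:16582802-16582829, chr3R:23752820-23752847 and, on the minus strand, chr3L:16610445-16610472):
Rpn3: gttatcggagTATCGATAtcgaaaaggc
Rpn12: tgttaaaataTATCGATAttaaagcaca
Rpt5: tcgctgtcacTATCGATAagcgccggcg
Prosbeta6: tatgtataccTATCGATAacgtttaagc
The element begins 197 bp before the start in Rpn3, 216 bp in Rpn12, 46 bp in Rpt5 and 44 bp in Prosbeta6. In Rpn3 it falls in an exon of l(2)37Bb, and in Rpt5 it partly overlaps an exon of the divergent partner RanBP3. Of the 12 general subunits with a DRE, 1 was bound (Rpn3), and of the 20 without one, 1 was bound (Rpn5). Over all genes 13.8% of those with a DRE and 10.3% of those without one were bound.

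The other motifs were less frequent or closer to the background. GGTCACACT, the M1BP motif of housekeeping promoters, was found in 5 of 32 general subunits (Prosalpha2, Prosalpha4, Prosbeta3, Rpn1 and Rpn7), 0 of 13 testis copies and 6.04% of all promoters. Here too 0 of 13 allows a share of up to 23.1%. TGACNNNGC, a form of the antioxidant response element bound by Cnc with Maf-S, was in 5 general subunits (Prosalpha2, Prosbeta3, Rpt6, Rpn1 and Rpn7), 1 testis copy (Prosbeta4R2) and 8.62% of all promoters. In Prosbeta3 and Rpn1 a match to it shares 5 bases with the M1BP match. Prosbeta3 has another match, beginning 227 bp before the start, that does not overlap the M1BP match. The 2 counts are therefore not independent at Rpn1. CAGGTG, an E-box that proteins of the Snail family recognise, was in 1 general subunit (Prosalpha2), 1 testis copy (Prosbeta4R2) and 9.31% of all promoters. CAGCTG was in Rpt3, Rpt3R and 17.6% of all promoters, and GAGAGAG in Prosbeta2R2, Rpt4R and 5.86%. TATAAA was in 13 general subunits, 5 testis copies and 45.8% of all promoters. None of the 7 motifs was found within 50 bp of the conservative summits at Rpn3 and Rpn5. The share of all conservative summits with no such match was not computed, so the absence cannot be called particular to these peaks. Among the promoters of all bound genes, CAGGTG was found in 8.32%, beside 9.31% of all promoters. Every other motif searched was more frequent among bound genes than among all. CAGCTG was in 23.8% beside 17.6%, the DRE in 12.2% beside 9.36%, and TGACNNNGC, the closest, in 8.72% beside 8.62%. These differences were not tested.

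**Figure D5:**
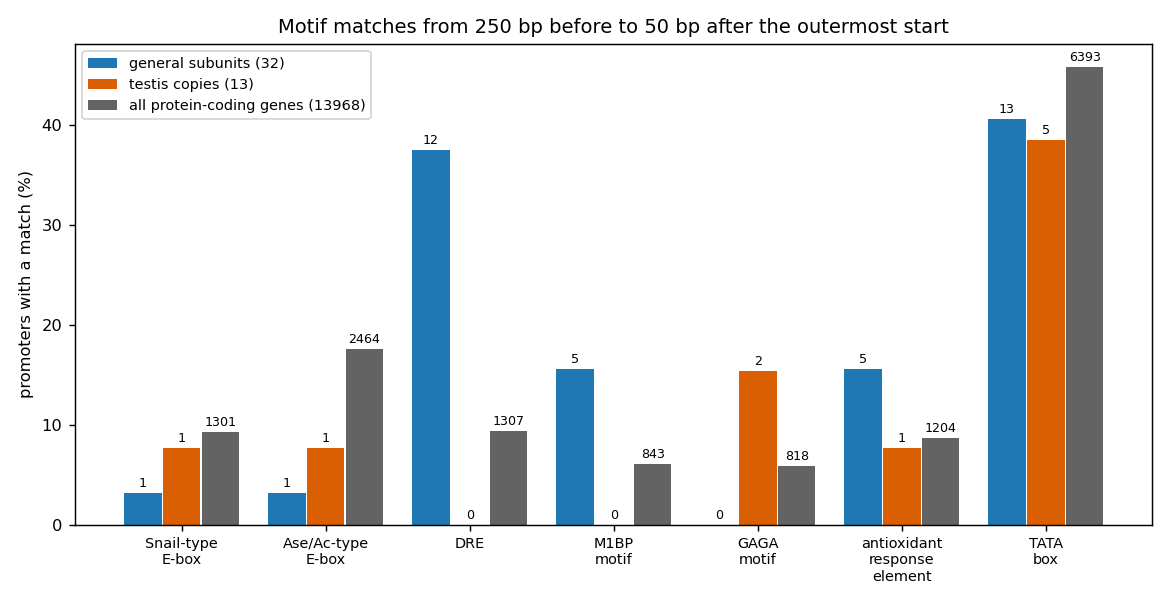
Percentage of promoters (250 bp before to 50 bp after the outermost start) with at least 1 match to each of 7 motifs, for general subunits, testis copies and all protein-coding genes, with the number of matching promoters above each bar. The DRE bar stands at 37.5% for general subunits, 0 for testis copies and 9.36% for all genes, and the Snail-type E-box bar is at 3.12% for general subunits.

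Genes that act with the proteasome were followed as 5 short lists of 29 genes in all, and 2 of the 29 were bound (6.90%, interval 1.91 to 22.0), again beside 10.6% of all genes. Pomp (FBgn0032884), the chaperone that matures the core particle, had a peak with a signal of 134 at chr2L:20787201-20787564, rank 1228, with its summit 273 bp upstream of the start and no other protein-coding start within 500 bp. Replicate 1 had 54.7 and replicate 2 had 80.1 there, and both thresholded lists held the peak. The 101 bases centred on this summit are shown because Pomp, unlike Rpn3 and Rpn5, has no divergent partner, and they hold none of the 7 motifs (chr2L:20787333-20787433, plus strand):
Pomp: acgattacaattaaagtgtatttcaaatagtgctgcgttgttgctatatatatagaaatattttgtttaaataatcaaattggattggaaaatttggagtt

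The second was alien (FBgn0013746), which encodes subunit CSN2 of the COP9 signalosome, a complex related to the lid that removes Nedd8. Its peak had a signal of 138, rank 1169, with the summit 156 bp upstream of alien and 70 bp from the divergent gene CG18661, and with 93.4 in replicate 1 and 51.5 in replicate 2. The other 7 signalosome genes were unbound, of which CSN1b, CSN3 and CSN5 had ranked peaks of 38.3, 39.3 and 25.6. Of 7 assembly factors, activators and partners, only Pomp was bound in the conservative list. PI31, a regulator of proteasome activity and transport, had a ranked peak of 54.4, Uch-L5, a deubiquitinase of the regulatory particle, had 38.2, and ntc, an F-box partner of PI31, had 37.9. REG, Usp14 and Sem1 had none.

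The regulators of proteasome gene expression were unbound, 0 of 4. cnc, the Nrf-family activator, had a ranked peak of 92.0 with a −log10 IDR of 0.56. The strongest peaks within 500 bp were 70.3 in replicate 1 and 26.4 in replicate 2. In the second thresholded list made from both replicates and in that of replicate 1 cnc was bound, by rules that called 10.9% and 9.26% of all genes. Its partner maf-S had 45.1, the deglycosylase gene Pngl had 52.1 and rngo, which encodes a Ddi1-type protease, had no ranked peak. Among 4 genes of ubiquitin and conjugation, Ubi-p63E, a polyubiquitin gene, had a ranked peak with a signal of 114, its summit 21 bp before a start and a −log10 IDR of 3.68, past the limit of 2, yet it is not among the conservative peaks, for a reason that no source used here gives. The strongest peaks near its starts were 60.6 in replicate 1 and 47.9 in replicate 2. The ubiquitin-conjugating enzyme gene eff had 61.2, and Uba1 and Ubi-p5E had none in the list of both replicates. Of 6 shuttle and p97 genes none was bound, with ranked peaks of 37.8 for Ubqn and 24.7 for Npl4 and none for Rad23, TER94, Ufd1 and p47.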

How the data were processed

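ChIP-seq libraries of 2 biological replicates of wor-GFP embryos were deposited as 4 thresholded and 4 ranked peak lists on dm6, per the notes deposited with the samples. No source used here names the peak caller, the aligner or their versions. The signal per peak is the authors' value and is not scaled between lists. The −log10 of the global IDR is deposited in the ranked lists, and 16 columns with values per input in the joint ranked lists were left out. The deposited distance of each summit from its peak start, in bp, gave the summit position. Depth per library is unknown.

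Genes and starts came from Ensembl release 115 (BDGP6 annotation 54), sequence from RefSeq Release 6, and arm lengths were checked against the lists. Peaks off the 7 arms (19 conservative peaks) were left out. Fragments were 200 to 800 bp long, per the labels. All 29 genes of the pathway lists were matched, 2 by synonym. Calling was tested on simulated summits. Counts, medians and Wilson intervals were computed with Python 3.11.15, pandas 2.3.3 and scipy 1.17.1, and no significance test was run. The members and lists were chosen with earlier results of these data known. Genes were named by rule: members, and pathway genes with a peak; other pathway genes were named after their values were seen. Protein sequences were not used here, so the planned comparison of copies with their subunits was not made.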

Additional observations from a re-analysis of the deposited data

How the results depend on the processing

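The general subunit count stayed at 2 with limits of 200 and 1000 bp, the second list of both replicates, the 1522 strongest conservative peaks, peak overlap with the window in place of the summit, and 1 start per gene. It was 1 (Rpn3) when a gene had to be nearest to the summit, and ran between 1 and 2 when a replicate was left out, with 1 without replicate 2. The count over all 48 members was the same, 1 for nearest starts and 1 to 2 without a replicate. The testis count was 0 under each of these, also with the R1 copies added. Of the 2 bound members, 1 was in the thresholded lists of both replicates. For the pathway lists, whose alternatives were added after seeing the data, the count was 1 at 200 bp and with nearest starts, 3 in the second list and without replicate 2, and 2 otherwise. The share of all genes bound was 10.6%, and became 6.92% at 200 bp, 12.7% at 1000 bp, 7.81% to 9.26% without a replicate, 7.19% with the strongest peaks, 11.5% by overlap, 7.90% with nearest starts and 8.98% with 1 start per gene. Ranked peaks, under alternatives also added after seeing the data, lay near 6 to 16 general subunits and 1 to 7 testis copies, beside 28.0% to 65.0% of all genes. The count of general subunits was 6 at 200 bp, and that of testis copies 7 at 1000 bp and 1 without replicate 1. The causes of these shifts were not tested beyond the limits' own construction. No paired analysis was possible because there was a single group. Unknown depth limits what can be said of unbound genes.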
